A study of Mus musculus with 6 samples.

Results

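The immediate early genes are transcripts that a cell makes at once when it is stimulated, without first making new protein. The 10 genes described here are Fos, Fosb, Jun, Junb, Egr1, Ier2, Ier3, Atf3, Nr4a1 and Dusp1. They were taken by symbol from a table of 49315 mouse Ensembl genes, in which each symbol matched 1 row, and all 10 had enough reads to be tested. RNA had been sequenced from 6 hearts of C57BL/6 mice. The 3 wild-type hearts carried an intact Arrdc4 gene, and the 3 knockout hearts came from mice that lacked it after CRISPR-Cas9 editing. Arrdc4 is an alpha-arrestin, an adaptor protein of the cell's protein sorting machinery. The labels name no treatment, and they give neither the age of the mice, the founders of the knockout line, the part of the heart taken nor the interval between death and RNA isolation.

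Growth factors, adrenergic hormones, mechanical stretch and ischaemia switch these genes on through kinase cascades that act on factors already bound at the promoters, mainly serum response factor (SRF) with its ternary complex partners and the cAMP response element binding protein CREB. The transcripts are short-lived, and the proteins are either transcription factors that drive a later wave of genes or enzymes and inhibitors that end the signal. In heart muscle they respond to pressure load and catecholamines, and in any tissue they can respond to dissection itself. The list is therefore often read as a record of how an organ was stimulated or handled before its RNA was fixed.

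The promoters of 4 members are shown because the results below turn on these genes. Nr4a1 had the widest range between hearts, Fos and Dusp1 ranked the hearts in the same order, and Ier3 followed a different order. The window of Ier3 had none of the letters marked here. Neither did that of Jun, which followed the mean of the other members closely (r = 0.87). Whether the letters bear on the order of the hearts was not tested. Each window runs from 250 bases before to 50 bases after a gene's start, 5′ to 3′ on the gene's own strand, in RefSeq's annotation of GRCm38.p6. Capitals mark TGACG, the core of the cAMP response element (CRE), the full CRE TGACGTCA, or the binding letters of EGR proteins, GCGGGGGCG or GCGTGGGCG, each on either strand.
Nr4a1 promoter window (chr15:101266596-101266895, plus strand): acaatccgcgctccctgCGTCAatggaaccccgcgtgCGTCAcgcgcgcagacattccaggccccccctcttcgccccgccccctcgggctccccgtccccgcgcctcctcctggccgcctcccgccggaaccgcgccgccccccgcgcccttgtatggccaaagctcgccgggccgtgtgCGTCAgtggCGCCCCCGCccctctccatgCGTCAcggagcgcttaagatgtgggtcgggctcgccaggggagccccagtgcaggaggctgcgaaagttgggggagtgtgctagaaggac
Fos promoter window (chr12:85473640-85473939, plus strand): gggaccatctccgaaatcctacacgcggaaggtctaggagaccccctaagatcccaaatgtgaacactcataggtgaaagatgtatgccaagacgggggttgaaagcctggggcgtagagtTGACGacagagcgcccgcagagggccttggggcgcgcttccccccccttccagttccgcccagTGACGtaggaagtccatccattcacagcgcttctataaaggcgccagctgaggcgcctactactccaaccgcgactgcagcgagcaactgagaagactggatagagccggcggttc
Dusp1 promoter window (chr17:26508423-26508722, minus strand): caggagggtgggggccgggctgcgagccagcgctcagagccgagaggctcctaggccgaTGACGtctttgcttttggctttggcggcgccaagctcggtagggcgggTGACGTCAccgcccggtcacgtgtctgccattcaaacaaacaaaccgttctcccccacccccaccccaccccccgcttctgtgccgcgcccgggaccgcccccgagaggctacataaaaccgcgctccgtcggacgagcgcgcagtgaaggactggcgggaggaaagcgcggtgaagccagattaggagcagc
Ier3 promoter window (chr17:35821463-35821762, plus strand): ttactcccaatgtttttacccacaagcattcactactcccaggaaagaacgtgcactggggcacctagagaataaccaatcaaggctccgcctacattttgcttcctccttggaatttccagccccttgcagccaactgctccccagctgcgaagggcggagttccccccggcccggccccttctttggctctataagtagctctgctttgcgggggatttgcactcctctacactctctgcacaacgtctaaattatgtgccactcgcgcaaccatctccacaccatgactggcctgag

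RefSeq promoter windows were given for 8 of the 10 members, all but Egr1 and Ier2. The CRE core TGACG, which is contained in the full CRE, was present in 6 of these 8 windows, those of Fos, Fosb, Junb, Atf3, Nr4a1 and Dusp1. It was present in 20.8% of all 32817 windows and in 29.8% of the 13724 windows of genes tested in these hearts. Nr4a1 held 4 copies, at 233, 213, 69 and 40 bases before the start, and 4 or more copies were found in 0.503% of the windows of tested genes. In Fos the copies began 129 and 66 bases before the start. The full CRE was found in Dusp1 alone, 143 bases before the start, against 2.87% of windows of tested genes. EGR letters were found in Fosb and Nr4a1 (6.38% of windows of tested genes). The CArG box bound by SRF and the AP-1 letters TGAGTCA and TGACTCA were in none of the 8 windows, and in 1.3% and 3.77% of windows of tested genes. Sites more than 250 bases before a start lie outside the windows and were not searched, so their absence from the promoters is not shown. The member windows were rich in G and C, with a median of 65.0% against 60.3% for tested genes. RefSeq's starts of Nr4a1, Dusp1 and Atf3, on which these windows rest, lie inside the spans that GENCODE gives the genes. These are matches of letters and say nothing of what was bound in these hearts.

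The genes themselves were compact. Their median genomic span in GENCODE M21 on GRCm38 was 4698.5 bases, against 24843.5 bases for 13112 tested protein-coding genes, and their longest transcripts had a median of 2.5 exons against 8. The longest transcripts of Jun, Junb and Ier2 have 1 exon. Spans above the median of tested genes belonged to Atf3 (chromosome 1, 191170296 to 191218039, minus strand) and Dusp1 (chromosome 17, 26505590 to 26562128, minus strand). Nr4a1 lies on chromosome 15 (101254269 to 101274795, plus strand), Fos on chromosome 12 (85473890 to 85477273, plus strand), Jun on chromosome 4 (95049034 to 95052222, minus strand) and Ier3 on chromosome 17 (35821684 to 35822923, plus strand). On the opposite strand Jun overlaps Junos, Junb overlaps Prdx2, Atf3 overlaps Gm24748, and Dusp1 overlaps Ergic1 and Gm8225. Dusp1 also overlaps AC122252.1 and AC122252.4 on its own strand. These overlaps are of whole gene spans, introns included, and overlap of exons was not measured. The labels do not say how strand and shared reads were counted. How far reads of these 4 members mix with those of their partners is therefore not known.

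Each heart gave 1 library of 29974501 to 41036626 counts. Arrdc4 stood at 11.0, 8.18 and 8.39 CPM in wild-type replicates 1 to 3 and at 0.117, 0.0345 and 0.0524 in knockout replicates 1 to 3, lower in all 3 hearts labelled knockout (edgeR log2 fold change -6.93, adjusted p = 0.00226). CPM is a gene's count relative to a library size corrected by TMM. The 7 cardiomyocyte markers summed to 51871 to 62973 CPM, whereas markers of skeletal muscle and lung summed to at most 0.471 and 0.140 CPM. Y-linked genes were high and Xist low in wild-type replicates 1 and 2 and knockout replicate 1, and the reverse held in wild-type replicate 3 and knockout replicates 2 and 3, so each genotype mixed the sexes unequally. Wild-type replicate 3 and knockout replicate 2 stood apart from the other 4 hearts. They resembled each other most of all pairs (chi-square of 7.89 per degree of freedom, against 26.8 or more for other pairs), and the members' values without both are given with the comparison.

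To compare members with each other, CPM was divided by exon length. On that scale Ier3 had the highest mean (19.3 CPM per kb over 6 hearts), followed by Dusp1 (14.7) and Jun (13.2). Knockout replicate 3 (34.4) weighed most in the mean of Ier3, and Dusp1 was above Ier3 in wild-type replicates 1 and 2. Ier2 (6.34), Junb (5.45) and Nr4a1 (4.40) came next, then Atf3 (1.81), Egr1 (1.25), Fos (0.609) and Fosb (0.0393). The mean of Nr4a1 rests on 1 heart: it was 18.5 CPM per kb in wild-type replicate 2 and 1.13 to 1.92 in the other 5, below Junb and near Atf3 there. The lowest Dusp1 value (12.8 CPM per kb) lay below the highest of Jun (18.5), so these neighbours overlapped, as did the ranges of Ier2 and Junb (5.66 to 7.78 and 3.97 to 7.03).

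**Figure D1:**
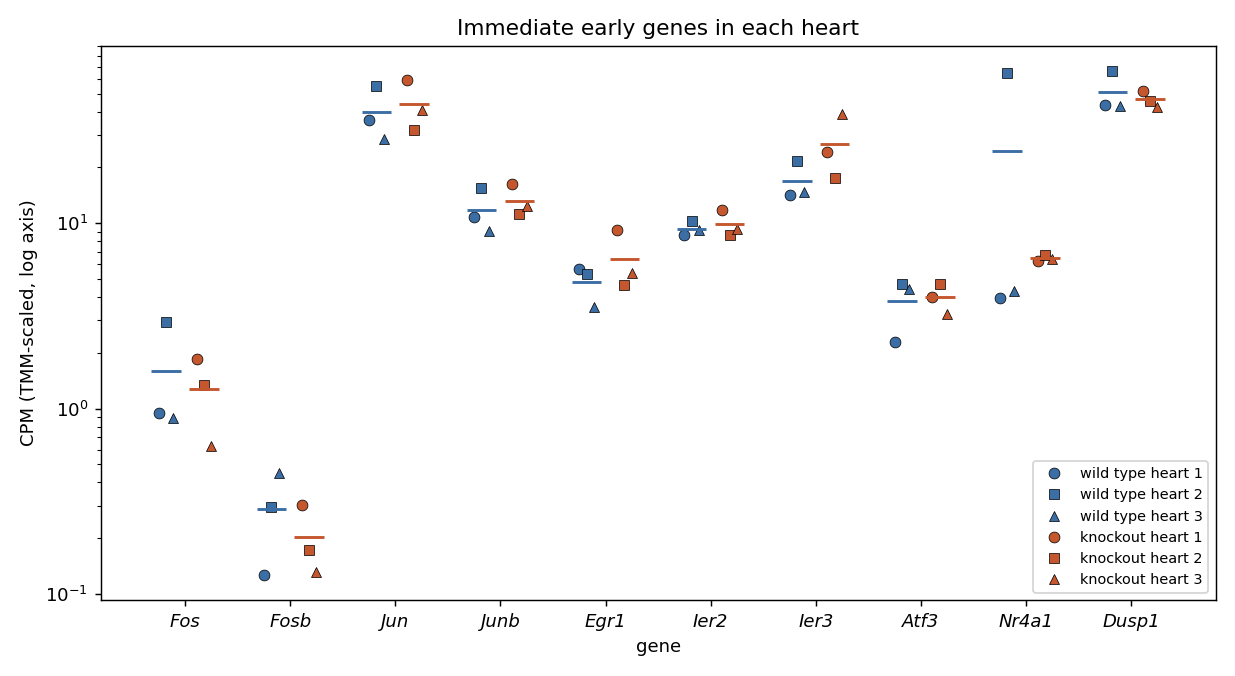
CPM of each immediate early gene (log axis) in the 3 wild-type and 3 knockout hearts. Symbols mark the replicate and bars the mean of each genotype; Nr4a1 in wild-type replicate 2 (65.0 CPM) lies far above the other 5 hearts (3.96 to 6.75), and the genotypes overlap for all 10 genes.

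Fos, Fosb, Jun and Junb encode subunits of AP-1, the dimeric factor that Fos and Jun proteins form, and among these 4 Jun had the highest level per kb in every heart. Jun, the founding DNA-binding partner, stood at 36.2, 55.3 and 28.5 CPM in wild-type replicates 1 to 3 and at 59.1, 32.0 and 41.0 CPM in knockout replicates 1 to 3. Junb, its relative with weaker transactivation, stood at 10.8, 15.6 and 9.13 CPM in wild type and at 11.2 to 16.2 CPM in knockout, highest in knockout replicate 1. For both Jun genes wild-type replicate 2 and knockout replicate 1 were the highest hearts and wild-type replicate 3 the lowest. Fos, which cannot bind DNA without a Jun partner, was scarce: 0.949, 2.93 and 0.895 CPM in wild type and 1.84, 1.34 and 0.628 CPM in knockout, from 24 to 110 reads. The counting interval of wild-type replicate 2 (95%, exact Poisson, 2.41 to 3.53 CPM) did not overlap that of any other heart. Fosb, a close relative of Fos, had only 4 to 15 reads in a heart (0.127 to 0.448 CPM). Its highest and lowest hearts, wild-type replicates 3 and 1, had intervals of 0.251 to 0.738 and 0.0345 to 0.324 CPM, which overlapped. Such intervals cover counting error only, since the reads carry no molecular identifiers.

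Nr4a1 showed the widest range of the 10 genes. It encodes an orphan nuclear receptor induced by cAMP and calcium signals. It stood at 3.96, 65.0 and 4.33 CPM in wild-type replicates 1 to 3 (125, 2440 and 145 reads) and at 6.23, 6.75 and 6.39 CPM in knockout replicates 1 to 3 (267, 196 and 244 reads). Wild-type replicate 2 was therefore 16.4-fold above wild-type replicate 1 (95% counting interval 13.7 to 19.8) and 9.62-fold above knockout replicate 2, the next highest heart (8.32 to 11.2). The 3 knockout hearts fell within 6.23 to 6.75 CPM, between the low and the high wild-type hearts.

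Egr1, a zinc finger factor of the serum response, stood at 5.63, 5.30 and 3.52 CPM in wild type and at 9.19, 4.65 and 5.42 CPM in knockout. Knockout replicate 1 was 1.63-fold above the next heart, and the other 5 lay within 3.52 to 5.63 CPM. Atf3, a stress-induced repressor of the ATF and CREB family, stood at 2.28, 4.71 and 4.42 CPM in wild type and at 4.01, 4.69 and 3.25 CPM in knockout, with wild-type replicate 1 lowest. Egr1 and Atf3 ranked the hearts differently: wild-type replicate 3 was the lowest heart for Egr1 and the third highest for Atf3.

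Dusp1, a nuclear phosphatase that switches off MAP kinases, was among the most abundant members at 43.5, 66.1 and 42.8 CPM in wild type and 51.9, 45.5 and 42.5 CPM in knockout. Wild-type replicate 2 was 1.53-fold above the mean of the other wild-type hearts, and knockout replicate 1 was second. Ier2, a nuclear protein of the serum response, varied least, from 8.61 to 10.3 CPM in wild type and from 8.61 to 11.8 CPM in knockout. Ier3, a regulator of cell survival and ERK signalling, stood at 14.2, 21.8 and 14.7 CPM in wild type and at 24.1, 17.5 and 38.9 CPM in knockout. It was the only member with knockout replicate 3 as its highest heart, 1.61-fold above the next, and Fos and Dusp1 had their lowest value in that heart.

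Loss of Arrdc4 moved none of the 10 genes past the threshold. Of all 14508 genes tested with edgeR's quasi-likelihood test, 0.00689% (1 gene, Arrdc4) had a Benjamini-Hochberg adjusted p under 0.05. None of the members did, and each had an adjusted p of 1. None of the 10 had an unadjusted p under 0.05, against 1.23% of tested genes, and DESeq2 and limma-voom called 0 members after adjustment. DESeq2 gave Ier3 an unadjusted p of 0.0482, and edgeR without a filter on low counts gave Ier3 0.0247 and Nr4a1 0.0241, each with an adjusted p of 1. For none of the 10 did the 3 knockout values lie apart from the 3 wild-type values, against 4.07% of tested genes. By fold change, 6 members were higher and 4 lower in knockout, and their median log2 fold change was 0.07, against 0.01 for all tested genes.

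The sizes were as follows, as log2 fold change of knockout over wild type. Ier3 had the smallest unadjusted p (0.0689 in edgeR's quasi-likelihood fit), with a mean of 16.9 ± 4.25 CPM in the wild-type hearts against 26.9 ± 10.9 CPM without Arrdc4 (SD, n = 3 each) and a value of 0.67 (SE 0.31, 95% interval -0.07 to 1.41). Egr1 gave 0.42 (SE 0.31), from 4.82 ± 1.13 to 6.42 ± 2.43 CPM (SD, n = 3 each). The Jun genes gave values near 0, 0.14 for Jun (SE 0.31, interval -0.58 to 0.86) and 0.17 for Junb (SE 0.24, interval -0.40 to 0.73). The Fos genes leaned the other way with wide intervals. Fos gave -0.33 (SE 0.57, interval -1.67 to 1.01), from 1.59 ± 1.16 to 1.27 ± 0.610 CPM (SD, n = 3 each). Fosb gave -0.49 (SE 0.56, interval -1.81 to 0.83). The 3 smallest values belonged to Atf3, Ier2 and Dusp1. Atf3 gave 0.06 (SE 0.30), Ier2 gave 0.09 (SE 0.17) and Dusp1 gave -0.12 (SE 0.20). Nr4a1 gave the largest value, -1.92 (SE 1.03, interval -4.34 to 0.50), from 24.4 ± 35.1 to 6.46 ± 0.270 CPM (SD, n = 3 each). For Jun, Junb, Ier2, Atf3 and Dusp1 a 2-fold difference lay outside the 95% interval on both sides, while for Fos, Fosb, Egr1, Ier3 and Nr4a1 the interval reached past 2-fold. For Jun the interval also reached past 2-fold without wild-type replicate 2 (to 1.11 on the log2 scale), knockout replicate 2 (to 1.01) or knockout replicate 3 (to 1.08), and with the replicate number as a block (to 1.01). For Atf3 it did so without wild-type replicate 2 (to 1.05), wild-type replicate 3 (to 1.02) or knockout replicate 3 (to 1.03).

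**Figure D2:**
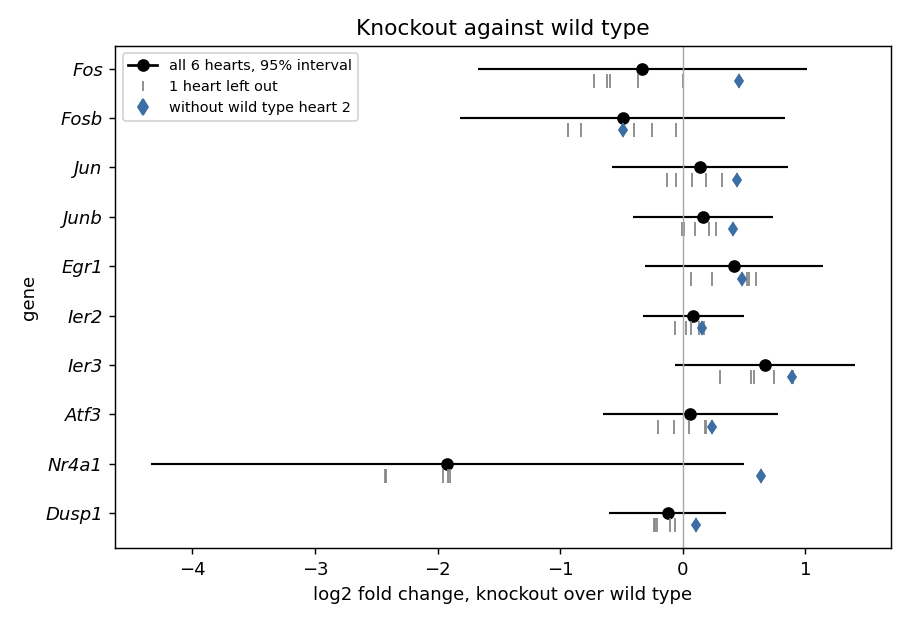
Log2 fold change of knockout over wild type for each gene. Black points and lines give the fit with 6 hearts and its 95% interval, grey ticks the fits with 1 heart left out, and diamonds the fit without wild-type replicate 2, where Nr4a1 moves from -1.92 to 0.64.

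Several of these directions rested on 1 heart. Without wild-type replicate 2 the value of Nr4a1 turned to 0.64 (SE 0.20, edgeR unadjusted p = 0.0151, adjusted p = 0.975, where the adjusted p of its fits ran from 0.617 to 1), Fos turned to 0.46 and Dusp1 to 0.11. Then 9 members were higher and 1 lower, with a median of 0.43. Without knockout replicate 1 the split was 3 higher and 7 lower, with a median of -0.10, and Egr1 stood at 0.06. Without knockout replicate 3 the value of Ier3 was 0.30. DESeq2 gave no p for Nr4a1, and limma-voom gave it -0.73. With a term for Y-linked reads Nr4a1 stood at -0.99, Egr1 at 0.64 and Fos at 0.00. Without both wild-type replicate 3 and knockout replicate 2, 7 members were higher and 3 lower. Fos then stood at -0.66, Fosb at 0.03 and Dusp1 at -0.23, while Ier3 stood at 0.80 (edgeR unadjusted p = 0.0263, adjusted p = 0.704) and Nr4a1 at -2.46 (edgeR unadjusted p = 0.0492, adjusted p = 0.743). Fosb moved from -0.94 without knockout replicate 1 to -0.05 without wild-type replicate 3. Unadjusted p under 0.05 occurred for Ier3, Nr4a1 and Egr1 alone, the smallest in edgeR being 0.0116 for Ier3 (without knockout replicate 2), 0.0151 for Nr4a1 (without wild-type replicate 2) and 0.00706 for Egr1 (with the term for Y-linked reads, adjusted p = 0.854). Over these 17 other fits no member had an adjusted p under 0.05, and the smallest was 0.613, for Egr1 and Ier3 without knockout replicate 2.

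Hearts of the same genotype differed widely for some members and little for others. The median within-genotype SD of log2 CPM was 0.45 for the 10 members and 0.29 for all 14508 tested genes, and 8 of the 10 were above that median. Nr4a1 (SD 1.62) was at percentile 99.9 of tested genes, Fos (0.85) at percentile 97.3 and Fosb (0.62), with the counting error of few reads in it, at percentile 91.2. Ier3, Jun, Atf3 and Egr1 lay between percentiles 75.1 and 79.0 and Junb (0.34) at 59.0. Dusp1 (0.27) and Ier2 (0.19) were below the median. Jun and Dusp1, though similar in level, had SDs of 0.46 and 0.27.

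**Figure D3:**
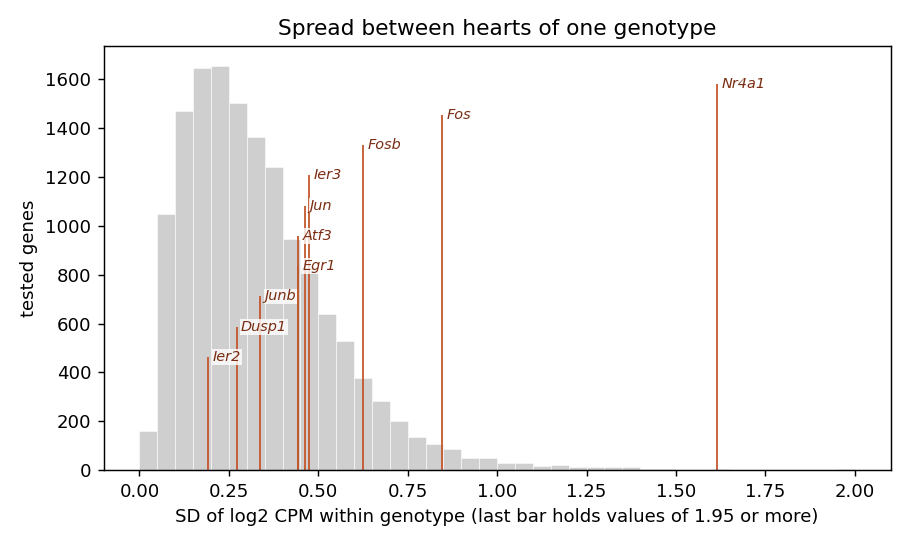
Histogram of the SD of log2 CPM between hearts of one genotype for 14508 tested genes, with the 10 immediate early genes marked by lines. Nr4a1, Fos and Fosb lie in the upper tail and Ier2 and Dusp1 below the median of 0.29.

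The variation was shared in part. The highest heart was wild-type replicate 2 for 4 members (Fos, Atf3, Nr4a1 and Dusp1) and knockout replicate 1 for another 4 (Jun, Junb, Egr1 and Ier2). Among all tested genes these hearts were highest for 15.4% and 21.6%. Wild-type replicate 1 was the lowest heart for 5 members (Fosb, Ier2, Ier3, Atf3 and Nr4a1), against 7.68% of tested genes. Relative to each gene's own mean over 6 hearts, the members' median log2 deviation was 0.33 in both wild-type replicate 2 and knockout replicate 1. It was -0.29 and -0.45 in wild-type replicates 1 and 3, and -0.18 and -0.11 in knockout replicates 2 and 3. The same median over all tested genes stayed within -0.01 to 0.02 in every heart. Each genotype thus had 1 heart with a positive median and 2 with a negative one. Knockout replicate 3 was mixed rather than low, with Ier3 at 0.92, Jun at 0.02, Fosb at -0.59 and Fos at -0.94.

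**Figure D4:**
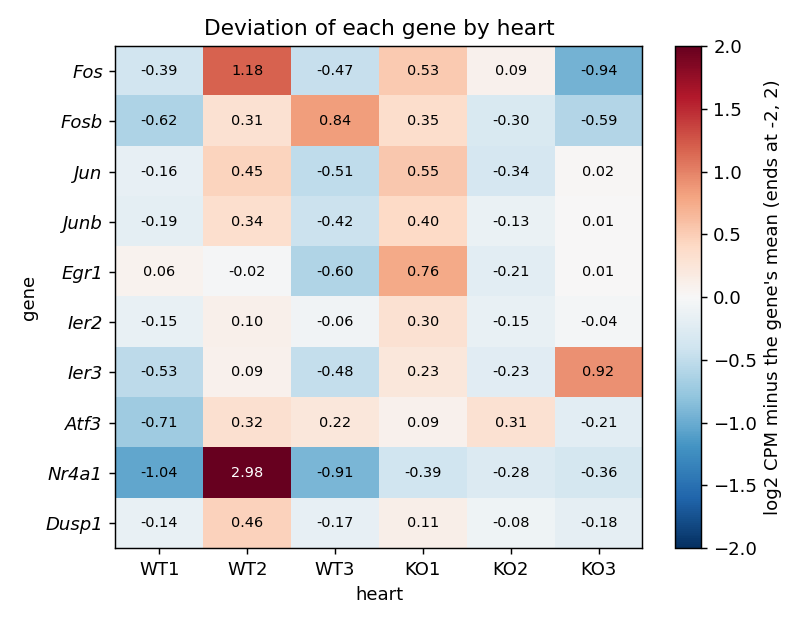
Log2 CPM of each gene in each heart minus that gene's mean over the 6 hearts (WT, wild type; KO, knockout; red above, blue below, colours end at the scale bar's limits). WT2 is red for all but Egr1 and KO1 for all but Nr4a1, WT1 is blue for all but Egr1, and Ier3 stands out in KO3.

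Of the 45 pairs of members, 41 had a positive Pearson correlation of log2 CPM over the 6 hearts, with a median r of 0.48 and a median Spearman rho of 0.43. No pair passed after Benjamini-Hochberg adjustment over the 45 exact permutation tests (two-sided, 720 orderings), while 7 had an unadjusted p under 0.05 by r and 2 by rho. Fos and Dusp1 gave r = 0.94 (exact permutation p = 0.0014, the smallest that 720 orderings can give, adjusted p = 0.0625). They ranked the 6 hearts identically, with rho = 1 (exact permutation p = 0.0028, adjusted p = 0.125), and r was 0.96 over the 4 hearts left without the pair farthest from the median of Fos. Jun and Junb gave r = 0.98 (exact permutation p = 0.0042, adjusted p = 0.0938) and rho = 0.94 (exact permutation p = 0.0167, adjusted p = 0.375), with r = 0.88 without wild-type replicate 2 and knockout replicate 1. Nr4a1 and Dusp1 gave r = 0.92 (exact permutation p = 0.0444, adjusted p = 0.295) but rho = 0.49 (exact permutation p = 0.356, adjusted p = 0.696), and r was 0.37 without wild-type replicates 1 and 2, so that this relation rests on those hearts. Fos and Ier3 gave r = -0.11 (exact permutation p = 0.836, adjusted p = 0.924) and rho = 0.03 (exact permutation p = 1, adjusted p = 1), and r was 0.98 without wild-type replicate 2 and knockout replicate 3.

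The highest hearts were then counted for other genes of the response, against 15.4% of tested genes for wild-type replicate 2 and 21.6% for knockout replicate 1. Of 16 other immediate early transcription factors 13 were tested, and wild-type replicate 2 was the highest heart for 7 of them and knockout replicate 1 for 5. Their median deviation was 0.47 and 0.31 in those hearts and -0.31 to 0.16 in the other 4. Of 27 tested early feedback regulators, which shut the response down again, wild-type replicate 2 was highest for 10 and knockout replicate 1 for 7, and the median deviation was 0.17 and 0.08. For knockout replicate 1 that count is near the 21.6% of all tested genes. Early secreted factors did not follow the pattern in full, with median deviations of -0.02 in wild-type replicate 2 and 0.41 in knockout replicate 1. Named after their values were seen, the genes with the clearest lead in wild-type replicate 2 included Sik1, a kinase induced by cAMP, at 85.4 CPM against 11.7 to 26.6 in the other hearts. Per1, a clock gene with CREB sites, stood at 68.5 CPM there and at 36.6 in knockout replicate 3, against 8.83 to 13.5 in the other 4. Zfp36, which speeds the decay of AU-rich transcripts, stood at 28.3 CPM against 11.5 to 14.8. Nr4a3, the relative of Nr4a1, stood at 7.94 CPM in that heart and at 5.66 in knockout replicate 3, against 0.538 to 1.66 in the other 4. Unlike Nr4a1, Nr4a3 and Per1 were thus high in 2 hearts, 1 of each genotype.

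None of these related genes passed the threshold between genotypes in edgeR, and every one had an adjusted p of 1. Over all 14508 tested genes 7590 were higher and 6918 lower in knockout. Among the 12 other AP-1 subunits 6 were higher and 6 lower (median log2 fold change -0.015), with Jund at 0.20 (SE 0.14) and Fosl1 at 0.24 (SE 0.24). The other immediate early transcription factors split into 7 higher and 6 lower (median 0.16), with the zinc finger gene Egr2 at 1.04 (SE 0.50) and Ier5l at 0.52 (SE 0.26). The feedback regulators split into 14 higher and 13 lower (median 0.03), with the kinase Plk3 at 0.68 (SE 0.24) and Btg1 at 0.30 (SE 0.19). Of 15 early secreted factors 11 were tested, 8 higher and 3 lower (median 0.13), with the chemokine Ccl2 at 1.16 (SE 0.60) and the matrix protein Thbs1 at 0.75 (SE 0.41).

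Genes upstream of the response had smaller median deviations by heart than the immediate early genes described here, though single upstream genes varied in both directions. The early feedback regulators ran from -0.20 in wild-type replicate 3 to 0.17 in wild-type replicate 2, near the range of the SRF and CREB regulators below. The 23 genes of the MAP kinase cascade, which carries the signal from receptors to the promoters, had median deviations of -0.07 to 0.05 in the 6 hearts. Between genotypes 12 were higher and 11 lower (median 0.00), with the ERK1 gene Mapk3 at 0.15 (SE 0.14) and Rps6ka4 at 0.18 (SE 0.18), and none of the 23 intervals reached 2-fold. Single genes of the list ranged more widely, as the RAF kinase gene Araf did, from 42.5 to 85.0 CPM. The 12 SRF and CREB regulators had median deviations from -0.14 in wild-type replicate 3 to 0.18 in knockout replicate 1, and the SRF coactivator gene Mrtfb ranged from 12.9 to 28.5 CPM, highest in wild-type replicate 2. Araf and Mrtfb were named after their values were seen. Between genotypes 8 SRF and CREB regulators were higher and 4 lower (median 0.065), with Creb1 at 0.16 (SE 0.13) and the SRF coactivator Mrtfa at 0.26 (SE 0.27). None of these 12 intervals reached 2-fold either.

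Some other features of the hearts moved with these transcripts, in part. Wild-type replicate 2 and knockout replicate 1 had the largest totals, 37518160 and 41036626 counts, although CPM is scaled for this. The 7 endothelial markers, all detected, had median deviations of 0.28 and 0.43 in these 2 hearts, -0.36 in wild-type replicate 3 and -0.39 in knockout replicate 2. Wild-type replicate 2 was the highest heart for 1 of the 7 and knockout replicate 1 for 5. The markers did not all move alike: Egfl7 stood at 33.4 CPM in wild-type replicate 2, and at 49.5 and 51.4 CPM in wild-type replicate 3 and knockout replicate 2. Their summed level ran from 333 to 586 CPM in wild type and from 323 to 682 CPM in knockout. The 7 fibroblast markers, all detected, summed to 496 to 744 CPM in wild type and to 411 to 1174 CPM in knockout. The fibroblast markers' median deviation was 0.43 and 0.78 in the 2 hearts with high immediate early transcripts. It was also 0.74 in knockout replicate 3, where the members' median was -0.11. Single fibroblast markers disagreed here too: Tcf21 was lowest in wild-type replicate 2 (4.29 CPM) and stood at 9.58 CPM in wild-type replicate 3. The 7 macrophage markers had deviations of 0.24 and 0.88 in the 2 high hearts and -0.64 to -0.06 in the others. Their summed level did not follow this in wild type, with 295 CPM in replicate 3 and 277 CPM in replicate 2. Smooth muscle and pericyte markers went opposite ways in the 2 high hearts, at -0.26 in wild-type replicate 2 and 0.34 in knockout replicate 1. Epicardial markers did so too, at -1.11 and 2.19. The 7 cardiomyocyte markers had their lowest median deviations in the 2 high hearts, -0.16 and -0.30, against -0.03 to 0.17 in the others. Named, like Myh6, after its values were seen, Myl2 stood at 6087.92 and 5053.89 CPM there, against 6751.14 to 11845.6 elsewhere. Myh6 stood at 26859 and 22899.5 CPM, against 29522.9 in knockout replicate 3 and 9166.84 to 17169 in the rest. Red blood cell markers' deviations were highest in the 2 high hearts, 0.18 and 0.39, against -0.47 to 0.11. Both high hearts had Y-linked reads, and so did wild-type replicate 1, the lowest heart for 5 members. The part of depth, cell makeup and sex in these levels was not tested. In a whole tissue, fewer cells of a type and less RNA per cell cannot be told apart.

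The genes whose log2 CPM followed the members' mean standardised level most closely over the 6 hearts were Tex261 (r = 0.99), Invs (0.98), Tor3a (0.98), Rab1b (0.98) and Maoa (0.97). They are the top 5 of 10840 genes compared, of which 0.673% had an r above 0.9, so a high r here is in part the outcome of choosing among many. Their ranges were narrow, from 75.3 to 87.1 CPM for Tex261 and from 174 to 184 CPM for Rab1b, while Fos spanned 4.66-fold between its lowest and highest heart. Within the list, the member that best followed the mean of the other 9 was Junb (r = 0.90), then Jun (0.87) and Dusp1 (0.85), and the members that followed it least were Ier3 and Fosb (0.27 each). These correlations share the same 6 libraries and are descriptions.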

How the data were processed

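RNA of 6 hearts was purified on Qiagen columns and made into NEBNext Ultra II libraries, per the labels' protocols. The deposited table holds raw counts per gene and heart, and the submitters' processing notes list STAR, featureCounts, Subread 1.5.2, DESeq2 and GRCm38.p6 with no roles. Of 49315 identifiers 48970 matched a symbol. Genes were kept by filterByExpr (minimum count 10, total 15), scaled by TMM and tested, knockout against wild type, with the quasi-likelihood test of edgeR 4.0.16 in R 4.3.3, adjusted by Benjamini-Hochberg over 14508 genes with a threshold of 0.05. Standard errors are the log2 fold change over the root of its F statistic. Log2 CPM used a prior count of 2. DESeq2 1.42.0, limma-voom 3.58.1 and the other alternatives are in the closing section. No 2 libraries agreed within sampling noise. Nothing says that hearts came from separate litters, so p-values measure the spread between these samples. The members and gene lists were chosen with earlier results of these data known. Named genes are the members, the 2 genes of the smallest p in each list and the 5 most similar genes, beside those said to be chosen later.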

Additional observations from a re-analysis of the deposited data

How the results depend on the processing

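Across 16 other settings and 1 added after the data were seen (a term for Y-linked reads), none of the 10 members passed the threshold. Among the 16, the fit without wild-type replicate 3 and knockout replicate 2 leaves out hearts that stood apart in these same data. Of 169 member values under an alternative, 158 kept their direction and 11 reversed. With 1 heart left out, log2 fold changes ran from -0.72 to 0.46 for Fos, -2.43 to 0.64 for Nr4a1, -0.23 to 0.11 for Dusp1, -0.13 to 0.44 for Jun, -0.01 to 0.41 for Junb, -0.06 to 0.18 for Ier2 and -0.20 to 0.24 for Atf3, and genes called over the whole table ran from 0 to 1. The 0 came when knockout replicate 3 was left out (126 genes with an unadjusted p under 0.05 in edgeR, against 179 with all hearts). When wild-type replicate 3 and knockout replicate 2 were both left out, Fosb stood at 0.03 and 2 genes were called (981 unadjusted). Leaving out knockout replicate 2 alone gave 1126 unadjusted, the largest number, the replicate block gave 72, the smallest, and the remaining settings gave 94 to 539. With the term for Y-linked reads Fos stood at 0.00. Fos against Ier3 gave r = 0.98 without the 2 hearts farthest from the median of Fos. The cause was not tested.

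Replicate numbers are shared by the genotypes but did not pair the hearts: deviations of same-numbered hearts correlated at 0.184, -0.649 and -0.399. With the number as a replicate block 0 genes were called in edgeR, and Nr4a1 stood at -0.56. Fosb was not tested at 1 CPM in 3 samples, and Fosb and Fos are limited by read number.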

Other observations

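Heat shock and hypoxia-responsive genes also respond to ischaemia. The 12 heat shock genes had median deviations of -0.11 to 0.11 in the 6 hearts, but single genes varied more. In wild-type replicate 2 and knockout replicates 1 and 3 Hspa1a stood at 1.81, 1.54 and 1.73 CPM, against 0.538 to 0.776 in the others. Hspa1b stood at 1.44, 2.19 and 2.23 CPM in the same hearts, against 0.854 to 1.07. These hearts were the highest for 3, 0 and 2 of the 12 genes. Of the 12, 4 were higher and 8 lower in knockout and none passed in edgeR (adjusted p = 1 each). Hspa1b stood at 0.71 (SE 0.36) and Hspb1 at -0.23 (SE 0.14). The 12 hypoxia-responsive genes had median deviations of -0.15 to 0.17 and split into 6 higher and 6 lower, with Ankrd37 at 0.53 (SE 0.20) and Ddit4, an inhibitor of mTOR signalling, at -0.75 (SE 0.31, 24.4 to 77.7 CPM over the hearts), and again none passed in edgeR (adjusted p = 1 each). Chosen, like Hspa1a, after their values were seen, the mitophagy gene Bnip3 and the mitochondrial chaperonin gene Hspe1 separated the 2 hearts that stood apart. Bnip3 stood at 601 and 545 CPM in wild-type replicate 3 and knockout replicate 2, against 157 to 274 CPM in the other 4. Hspe1 stood at 218 and 216 CPM in these 2 hearts, against 88.8 to 116 CPM in the others. The members' median deviation was -0.45 and -0.18 in these 2 hearts, and knockout replicate 2 was mixed, with Atf3 at 0.31 and Jun at -0.34. It was also negative in wild-type replicate 1 (-0.29), with Bnip3 at 274 and Hspe1 at 116 CPM, and in knockout replicate 3 (-0.11).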
